A study of Mus musculus with 6 samples.

Results

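The genes examined here encode the proteins with which the sarcoplasmic reticulum of cardiomyocytes, the heart's muscle cells, takes up, holds and releases calcium. The 10 genes (Atp2a2, Pln, Sln, Ryr2, Trdn, Jph2, Asph, Casq2, Hrc and Calr) were taken from the deposited expression table by gene symbol. The set was chosen with earlier results of these data known. They were 10 of 54532 genes in the table, and all 10 were among the 12944 genes whose mean over the hearts was high enough to be tested. FPKM, the unit of the table, is the number of sequenced fragments per kilobase of transcript model, relative to a library size set for each heart. Where values of 3 hearts are listed, they stand in the order of replicates 1, 2 and 3.

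The hearts came from a study of Mrps5, whose product belongs to the small subunit of the mitochondrial ribosome, and of what its loss does to the adult heart. Both groups carried loxP-flanked Mrps5 alleles (Mrps5 fl/fl), and both received tamoxifen at 8 weeks of age by injection into the peritoneum, at 45 mg per kg and day over 5 days. The 3 knockout mice (cKO) carried in addition MCM, the MerCreMer recombinase driven by the α-myosin heavy chain promoter in cardiomyocytes, and the 3 control littermates (Ctrl) did not, so the presence of the recombinase and the loss of Mrps5 cannot be told apart. Hearts were taken 12 weeks after tamoxifen according to the labels, whereas the study's methods give an age that is younger than these label values add up to. The labels name heart as the tissue, and the methods name ventricle.

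Each heartbeat starts when calcium entering the cell opens ryanodine receptors in the membrane of the sarcoplasmic reticulum, and the calcium that pours out triggers contraction. The muscle relaxes when the SERCA pump moves calcium back into the lumen, where binding proteins hold it for the next beat. Short membrane peptides set the pump's speed, and slowed uptake with weakened release is a known feature of the failing heart.

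The libraries held 15989322 to 24875499 reads assigned to genes, as worked back from the deposited values. The library size implied by the FPKM values was 0.913 to 0.980 times these reads in Ctrl hearts and 1.059 to 1.062 times in cKO hearts. Against a scale of assigned reads this lowers cKO values relative to Ctrl values. The reason for it was not tested. Mrps5 was at 5.20 to 6.45 FPKM in Ctrl hearts, against 1.12 to 1.31 FPKM in cKO hearts, which was 20.4% of the Ctrl mean in RNA of the whole tissue (log2 fold change -1.65). All 10 cardiomyocyte markers had a negative log2 fold change, as had 6717 of all 12944 genes tested. Of the 10 markers 3 passed the test, a share close to the 33.3% of all genes tested (17.0% lower and 16.3% higher). The same shares over all genes apply to the marker counts below. The cardiomyocyte markers summed to 10027 to 11761 FPKM in Ctrl hearts, against 6649 to 9573 FPKM in cKO hearts. Whether there were fewer cells of a type or less RNA per cell cannot be told apart in such tissue. The skeletal muscle markers summed to at most 2.12 FPKM in any heart, with Myh1 at 0 in all. Of the other cell types, endothelial markers were lower in 4 of 5 genes, with sums of 114 to 132 FPKM in Ctrl and 74.6 to 87.2 FPKM in cKO hearts. Fibroblast markers were split, with 1 of 6 higher and 1 lower, and 1 of 5 macrophage markers was lower. Ventricular markers were lower in 2 of 3 genes. The part of these cell types in the values below was not tested. In cKO replicate 2 all 4 Y-chromosomal genes read (Eif2s3y, Ddx3y, Uty and Kdm5d) were at 0 and Xist was at 10.7 FPKM, unlike in the other hearts, although the study's reporting statement describes all mice as male. The atrial light chain Myl7 was at 679 FPKM in Ctrl replicate 1 and at 495 FPKM in cKO replicate 3 against 18.1 to 170 FPKM in the other hearts.

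The shortest of the encoded proteins are the peptides that sit beside the pump. Phospholamban (Pln) and sarcolipin (Sln) slow it, and the DWORF peptide of Strit1, which is not among the 10 genes but was followed beside them, displaces phospholamban and speeds the pump. Their reading frames are shown because these frames are short and because Pln and Strit1 were lower in every cKO heart than in any Ctrl heart. The number of reads behind a value depends on the length of the whole gene model, given below, and not on the frame. Start and stop codons are in capitals, and the frames were read 5′ to 3′ from the GENCODE release 21 transcripts of GRCm38. The Pln frame is at chr10:53343864-53344022 on the plus strand in 1 exon, the Sln frame at chr9:53853473-53853568 on the plus strand in 1 exon, and the Strit1 frame spans chr3:63481290-63483827 on the minus strand in 2 exons.
Pln: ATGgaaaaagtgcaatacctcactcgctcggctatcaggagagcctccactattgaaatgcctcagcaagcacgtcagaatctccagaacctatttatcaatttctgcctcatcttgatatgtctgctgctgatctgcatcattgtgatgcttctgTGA
Sln: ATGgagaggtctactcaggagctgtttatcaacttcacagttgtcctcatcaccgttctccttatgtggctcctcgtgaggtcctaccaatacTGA
Strit1: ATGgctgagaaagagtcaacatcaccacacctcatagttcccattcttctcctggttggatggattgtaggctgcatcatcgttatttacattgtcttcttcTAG
These frames hold 52, 31 and 34 codons before the stop. The deposited gene models are 2759 bases long for Pln, 1318 for Sln and 243 for Strit1, so that Strit1 has few reads at a given FPKM.

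Among the 10 genes, 5 were lower in cKO hearts (Hrc, Pln, Atp2a2, Ryr2 and Trdn), 0 were higher and 5 did not pass the test. Over all 12944 genes tested, 33.3% passed, 17.0% as lower and 16.3% as higher. The groups did not overlap for the same 5 genes, each lower in every cKO heart, against 51.2% of all genes tested (26.4% lower and 24.8% higher). The median log2 fold change was -0.53 over the 10 genes and -0.02 over all genes. Of the 10 changes 8 were negative, and those of Casq2, Jph2 and Asph turned positive when each heart was scaled to its cardiomyocyte markers. The test was limma on log2(FPKM + 1) with Benjamini-Hochberg adjustment over all genes, and every adjusted p given for a gene comes from it. Scaling each heart to its summed FPKM over genes not encoded by mtDNA raised the share of higher genes among all calls from 48.9% to 62.1%. It left the count for the 10 genes at 5. This setting replaces the deposited scale as a whole, and the part of the mtDNA-encoded genes in the move was not tested. Scaling to the cardiomyocyte markers raised the share of higher genes to 93.7% (5712 higher and 387 lower genes), and 4 of the 10 genes then passed, 3 as lower and 1 as higher. This scaling used the mean of the log2 marker values in each heart. Among the markers Cmya5 had a log2 fold change of -1.89, and the others lay between -0.64 and -0.11. How far Cmya5 sets the scaling was not tested.

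**Figure D1:**
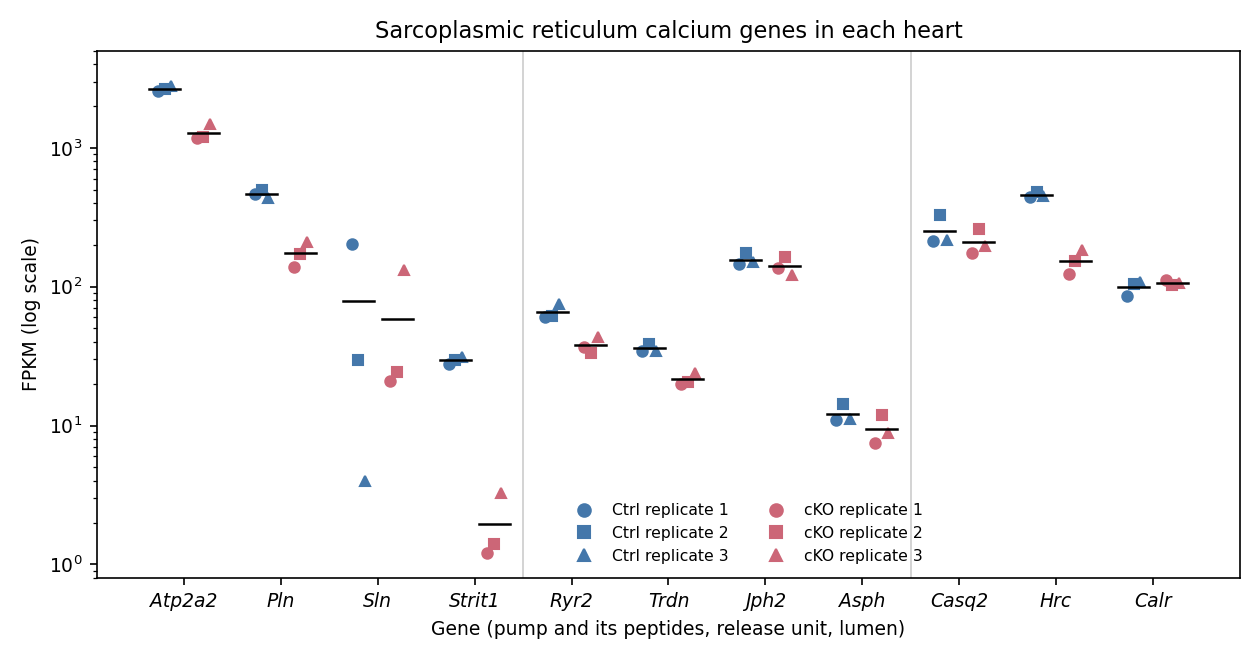
FPKM (log axis) of the 10 genes and of Strit1 in each of the 3 Ctrl (blue) and 3 cKO (red) hearts, with circles, squares and triangles for replicates 1, 2 and 3 and bars for group means, ordered as pump and peptides, release unit and lumen. Atp2a2, Pln, Strit1, Ryr2, Trdn and Hrc are lower in every cKO heart than in any Ctrl heart, whereas Sln ranges from 3.98 to 204 FPKM within Ctrl alone.

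The pump gene was the most abundant of the 10 in every heart. Atp2a2, which encodes SERCA2, was at 2552, 2657 and 2788 FPKM in Ctrl hearts, against 1174, 1193 and 1488 FPKM in cKO hearts. The cKO hearts all lay below the Ctrl hearts, and the highest of them was 41.7% below the lowest Ctrl heart. The mean fell to 48.2% of Ctrl, from 2666 ± 118 to 1285 ± 176 FPKM (SD, n = 3 each), and the log2 fold change was -1.06 (SE 0.12, adjusted p 0.0016). The gene lies at chr5:122453513-122502225 on the minus strand with 20 exons in its longest coding transcript. Values per gene do not separate its 2 coding lengths, the longer of 1044 codons, and 83 exon bases are shared with Gm43361 on the other strand, which was at most at 0.247 FPKM.

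Phospholamban, the peptide that slows SERCA until it is phosphorylated, was lower in cKO hearts as well. Pln was at 467, 494 and 433 FPKM in Ctrl hearts, against 139, 172 and 209 FPKM in cKO hearts. The groups did not overlap, and the highest cKO value, in replicate 3, was 51.8% below the lowest Ctrl value. The mean fell from 465 ± 30.5 to 173 ± 34.8 FPKM (SD, n = 3 each), to 37.3% of Ctrl, and the log2 fold change was -1.43 (SE 0.15, adjusted p 0.0015). In the table's coordinates the gene (chr10:53337667-53345987, plus strand, 2 exons) shares 1644 exon bases with Gm47644 and 141 with Cep85l, both on the other strand. Whether reads were counted by strand is not stated. Gm47644 was at 2.42 to 3.85 FPKM in Ctrl hearts, against 1.53 to 2.29 FPKM in cKO hearts, and Cep85l at 2.27 to 2.77 and 1.25 to 1.64 FPKM, all far below Pln.

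Sarcolipin did not pass the test, and its values in hearts of the same group were far apart. Sln was at 204, 29.7 and 3.98 FPKM in Ctrl hearts, against 20.9, 24.4 and 131 FPKM in cKO hearts, from 127 to 5123 reads a heart. The ranges of the groups overlapped almost entirely, and the difference of 0.41 on the log2 scale had a 95% interval from -2.75 to 3.58 (adjusted p 0.835). Without Ctrl replicate 3 the difference was -0.92, and without cKO replicate 3 it was -0.42. Sarcolipin is mainly an atrial peptide in the mouse heart, so its values were set beside the atrial myosin light chains. Myl7 was at 679, 98.6 and 18.1 FPKM in Ctrl hearts, against 71.8, 170 and 495 FPKM in cKO hearts. Myl4 was at 107, 16.7 and 3.10 FPKM in Ctrl hearts, against 12.7, 26.7 and 88.0 FPKM in cKO hearts. All 3 genes were highest in Ctrl replicate 1, next in cKO replicate 3 and lowest in Ctrl replicate 3. The ratio of Sln to Myl7, computed after these values were seen, stayed between 0.144 and 0.301 in the 6 hearts and overlapped between groups (exact permutation p 0.5). None of the 6 atrial markers passed the test, and their summed level was 128 to 1925 FPKM in Ctrl hearts, against 560 to 1592 FPKM in cKO hearts. The sum includes Nppa, at 103 to 1062 FPKM in Ctrl hearts, against 469 to 1127 FPKM in cKO hearts. The study uses Nppa as a marker of hypertrophy, so the sum is not a measure of atrial cells alone. The part of the atrial markers in the Sln values was not tested beyond the ratio of Sln to Myl7.

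**Figure D2:**
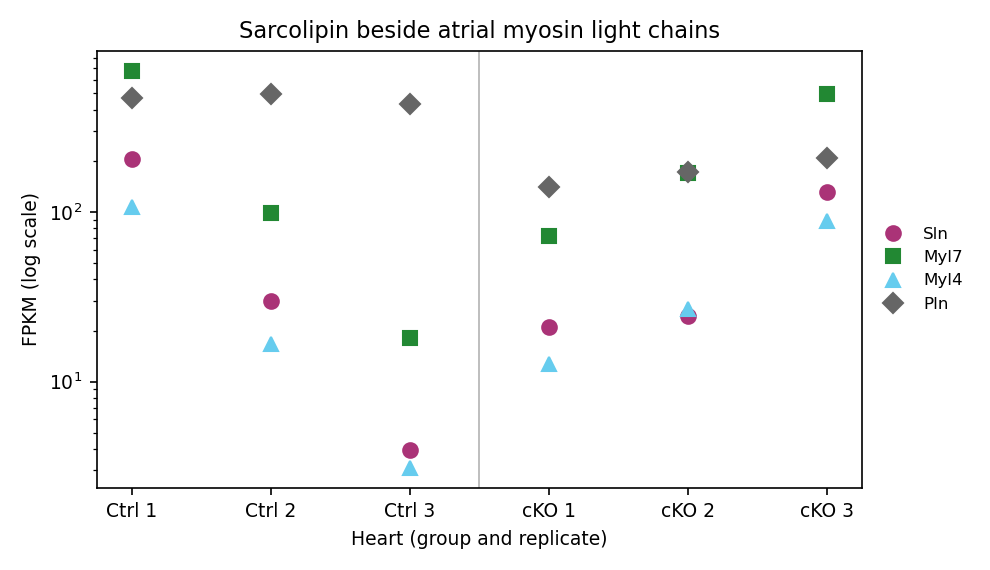
FPKM (log axis) of Sln, of the atrial myosin light chains Myl7 and Myl4 and of Pln in each heart, Ctrl on the left and cKO on the right of the line. Sln, Myl7 and Myl4 are highest in Ctrl 1 and cKO 3 and lowest in Ctrl 3, while Pln lies between 433 and 494 FPKM in all 3 Ctrl hearts.

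Strit1, listed in the table as Gm34302, a name that RefSeq gives as a synonym, showed a larger fall than any of the 10 genes. It was at 27.6, 29.9 and 31.3 FPKM in Ctrl hearts, against 1.22, 1.41 and 3.27 FPKM in cKO hearts. The reads behind these values were 128, 151 and 184 in Ctrl and 5, 8 and 20 in cKO hearts, and in FPKM the highest cKO heart was 88.2% below the lowest Ctrl heart. The mean fell from 29.6 ± 1.85 to 1.97 ± 1.14 FPKM (SD, n = 3 each), to 6.64% of Ctrl, and the log2 fold change was -3.43 (SE 0.24, adjusted p 0.00043). On log2(FPKM + 1), which understates changes of low genes, 0 of the 12944 genes tested had a more negative change. No other annotated gene shares exon bases with it (chr3:63481112-63483879, minus strand, 3 exons).

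The release channel and a protein that couples it to the lumen were lower too. Ryr2, the ryanodine receptor of heart muscle, was at 60.8, 61.7 and 75.2 FPKM in Ctrl hearts, against 36.9, 33.2 and 43.5 FPKM in cKO hearts. All cKO hearts lay below all Ctrl hearts, with cKO replicate 3 nearest to them. The mean fell from 65.9 ± 8.06 to 37.9 ± 5.21 FPKM, to 57.5% of Ctrl, and the log2 fold change was -0.78 (SE 0.13, adjusted p 0.0052). The gene is at chr13:11553102-12106945 on the minus strand, with 105 exons in its longest coding transcript.

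Trdn encodes triadin, which anchors calsequestrin to the ryanodine receptor. It was at 34.5, 38.9 and 34.3 FPKM in Ctrl hearts, against 19.8, 20.7 and 24.0 FPKM in cKO hearts. Again every cKO heart lay below every Ctrl heart, by 30.0% at the nearest. The mean fell from 35.9 ± 2.59 to 21.5 ± 2.23 FPKM, to 59.9% of Ctrl (log2 fold change -0.72, SE 0.10, adjusted p 0.0029). The locus, chr10:33080554-33476709 on the plus strand, has 7 coding lengths, which the values do not separate. With hearts scaled to their cardiomyocyte markers, Ryr2 (log2 fold change -0.29, adjusted p 0.254) and Trdn (-0.23, adjusted p 0.244) lost their calls in limma, the only calls among the 5 lost in any of 16 alternatives.

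Jph2 and Asph, which hold the release site together, did not pass. Jph2 encodes junctophilin 2, the tether between the reticulum and the cell's surface membrane, and was at 145, 174 and 151 FPKM in Ctrl hearts, against 135, 165 and 122 FPKM in cKO hearts. The groups overlapped, and the log2 difference of -0.16 had a 95% interval from -0.47 to 0.15 (adjusted p 0.379). Asph was at 10.9, 14.3 and 11.2 FPKM in Ctrl hearts, against 7.5, 11.9 and 8.77 FPKM in cKO hearts. Replicate 2 was the highest heart of each group, and the groups overlapped through cKO replicate 2. The log2 difference was -0.35 (95% interval -0.75 to 0.05, adjusted p 0.157), and without cKO replicate 2, the heart with Xist, it passed (log2 fold change -0.52, adjusted p 0.033). Asph encodes both junctin, a partner of triadin at the release channel, and an aspartate hydroxylase from the same locus (chr4:9448069-9669344, minus strand), and its 15 coding lengths are summed in these values. It shares 2302 exon bases with Clvs1 on the other strand, which was at most at 0.127 FPKM.

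Of the 3 genes of the lumen, Hrc alone passed. Hrc, the histidine-rich calcium-binding protein that binds calcium in the lumen and contacts both SERCA and triadin, had the largest change of the 10 genes. It was at 439, 484 and 453 FPKM in Ctrl hearts, against 123, 152 and 184 FPKM in cKO hearts. The highest cKO heart was 58.1% below the lowest Ctrl heart. The mean fell from 459 ± 23.1 to 153 ± 30.7 FPKM, to 33.3% of Ctrl, and the log2 fold change was -1.60 (SE 0.15, adjusted p 0.0011). On log2(FPKM + 1), 44 of the 12944 genes tested (0.340%) had a more negative change, and 68 (0.525%) a more negative change than Pln. That scale understates changes of low genes, so these ranks favour abundant genes and are not ranks of the fall in FPKM. Hrc lies at chr7:45335290-45338974 on the plus strand with 6 exons.

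Casq2, calsequestrin 2, the main calcium store of the lumen, was at 213, 326 and 218 FPKM in Ctrl hearts, against 174, 260 and 196 FPKM in cKO hearts. The groups overlapped, since cKO replicate 2 lay above Ctrl replicates 1 and 3. The log2 difference was -0.26 with a 95% interval from -0.75 to 0.24 (adjusted p 0.381), which holds both no difference and a fall as large as that of Trdn. Calr encodes calreticulin, a calcium-binding chaperone of the endoplasmic reticulum at large, and was at 85.8, 104.8 and 107.4 FPKM in Ctrl hearts, against 112.2, 102.9 and 106.1 FPKM in cKO hearts. Except for the lower Ctrl replicate 1, the hearts of both groups lay close together. Its log2 difference was 0.11 (95% interval -0.13 to 0.36, adjusted p 0.435), and with hearts scaled to their cardiomyocyte markers it passed as higher (log2 fold change 0.62, adjusted p 0.019).

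The order of the 10 genes was read in each heart by FPKM, a scale that is per length. Atp2a2 was the highest in all 6 hearts. Hrc was above Casq2 in 3 of 3 Ctrl hearts and in 0 of 3 cKO hearts, and Pln was above Casq2 in 3 Ctrl hearts and in 1 cKO heart. Pln and Hrc were neighbours in level whose ranges overlapped in both groups, with Pln above Hrc in 2 Ctrl and 3 cKO hearts. Casq2 stood apart from both in Ctrl hearts and overlapped both in cKO hearts.

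Ratios within a heart compare genes of the same library. With 3 hearts a group the smallest exact two-sided permutation p is 0.1, so no ratio could pass, and 12 ratios were computed, 7 of them chosen after the values were seen. The ratio of Pln to Atp2a2, peptide to pump, was 0.183, 0.186 and 0.155 in Ctrl and 0.119, 0.144 and 0.140 in cKO hearts. It was lower in every cKO heart (0.769-fold, exact permutation p 0.1, 0.2 after Benjamini-Hochberg adjustment). The ratio of Hrc to Casq2 was 2.06, 1.49 and 2.07 in Ctrl and 0.705, 0.584 and 0.941 in cKO hearts, again without overlap (0.393-fold, exact permutation p 0.1). Casq2 to Ryr2 was 3.5, 5.28 and 2.90 in Ctrl and 4.72, 7.82 and 4.49 in cKO hearts, with overlap (1.46-fold, exact permutation p 0.3). Sln to Atp2a2 (exact permutation p 0.4) and Calr to Casq2 (exact permutation p 0.3) overlapped as well.

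Of the ratios added later, Strit1 to Atp2a2 had the largest difference. It was 0.0108, 0.0112 and 0.0112 in Ctrl and 0.00104, 0.00118 and 0.0022 in cKO hearts, so that the transcript of the activating peptide, relative to that of the pump, was 0.125-fold in cKO without overlap (exact permutation p 0.1). Strit1 to Pln was 0.163-fold and Hrc to Atp2a2 0.686-fold in cKO, both without overlap (exact permutation p 0.1 each). Trdn to Ryr2 overlapped, at 0.456 to 0.630 in Ctrl and 0.537 to 0.622 in cKO hearts (1.04-fold, exact permutation p 0.9). Jph2 to Ryr2 overlapped, at 2.01 to 2.82 in Ctrl and 2.81 to 4.96 in cKO hearts (exact permutation p 0.2).

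**Figure D3:**
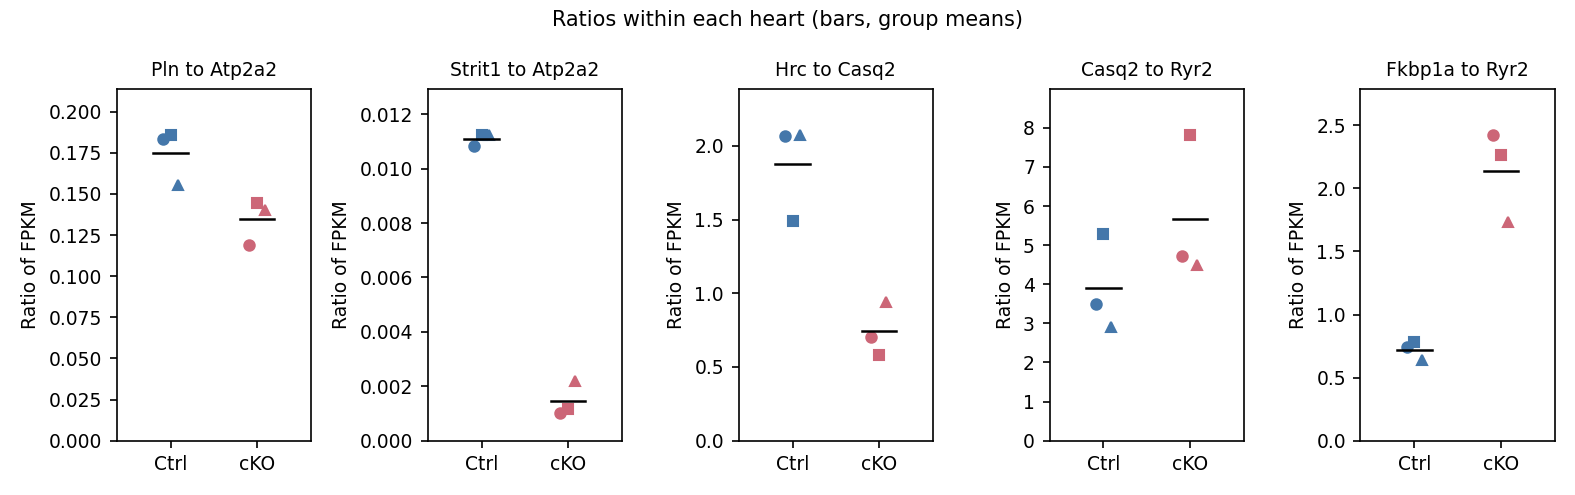
Ratios of FPKM within each heart (axes from 0) for 5 gene pairs, Ctrl in blue and cKO in red, with circles, squares and triangles for replicates 1, 2 and 3 and bars for group means. Strit1 to Atp2a2, at 0.0108 to 0.0112 in Ctrl, is at most 0.0022 in cKO hearts, Fkbp1a to Ryr2 is higher in every cKO heart, and Casq2 to Ryr2 overlaps.

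The partners of the release channel and its junction were read as a wider list of 21 genes, of which 17 could be tested. Past the threshold 4 were higher and 5 lower in cKO, and 8 did not pass, with a median log2 fold change of 0.02. The share that passed was 52.9%, against 33.3% of all genes tested. Fkbp1a, which encodes the FK506-binding protein FKBP12, rose from 44.9, 48.3 and 47.8 FPKM to 89.4, 75.3 and 75.5 FPKM (log2 fold change 0.75, SE 0.09, adjusted p 0.0021). All 3 cKO hearts lay above all Ctrl hearts, and relative to Ryr2 the level was 2.96-fold higher in cKO (0.636 to 0.783 against 1.74 to 2.42, exact permutation p 0.1). Its paralog Fkbp1b, the FKBP12.6 bound by the heart's ryanodine receptor, was at 0.471 to 1.18 FPKM in Ctrl hearts, against 0.579 to 0.671 FPKM in cKO hearts (log2 difference -0.18, 95% interval -0.53 to 0.17, adjusted p 0.383). These Fkbp1b values rest on only 10 to 23 reads a heart.

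Jsrp1, a junctional protein known from skeletal muscle, was low, at 0.433 to 0.630 FPKM in Ctrl hearts from 12 to 17 reads each, and rose to between 1.10 and 1.95 FPKM in cKO hearts from 37 to 55 reads each (log2 fold change 0.76, adjusted p 0.008). Jph1, the paralog of Jph2 found mostly in skeletal muscle, was at 7.10 to 7.76 FPKM in Ctrl hearts and fell to between 5.06 and 5.71 FPKM in cKO hearts (log2 fold change -0.44, adjusted p 0.0064). The groups did not overlap for either gene. Calm2 and Sri were the other higher genes, and Itpr2, Itpr3, Casq1 and Tmem38a the other lower genes, with log2 fold changes between -0.39 and -0.31. When hearts were scaled to cardiomyocyte markers all 5 lower release partners lost their calls in limma, Jph1 at a log2 difference of -0.0019 (adjusted p 0.991) and Tmem38a at 0.20 (adjusted p 0.257), and the 4 higher ones kept theirs. Srl, which encodes sarcalumenin of the lumen, was at 159 to 197 FPKM in Ctrl hearts, against 154 to 220 FPKM in cKO hearts (log2 difference 0.04, 95% interval -0.33 to 0.41, adjusted p 0.869).

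Among the pump's partners 21 of the 25 listed genes could be tested, with 2 higher, 6 lower and 13 not past the threshold and a median log2 fold change of -0.06. The share that passed, 38.1%, was close to the 33.3% of all genes tested. Hax1, a mitochondrial and reticular protein that binds phospholamban, rose from 12.3, 12.0 and 11.6 FPKM in Ctrl to 37.7, 34.8 and 31.7 FPKM in cKO hearts. The groups were far apart, and the log2 fold change was 1.46 (SE 0.08, adjusted p 0.0002). The kinase CaMKII, which phosphorylates both phospholamban and the ryanodine receptor, is made by several genes that moved in both directions. Camk2a, whose locus also encodes the anchoring protein αKAP of muscle, fell from 7.90, 7.84 and 7.03 FPKM to 2.59, 3.07 and 2.82 FPKM (log2 fold change -1.17, SE 0.08, adjusted p 0.00045). Camk2d, the gene best known for the kinase of the heart, rose from 5.15, 5.71 and 5.14 FPKM to 7.14, 8.07 and 6.6 FPKM (log2 fold change 0.38, SE 0.09, adjusted p 0.0176). The groups did not overlap for either gene. On this scale, which is per length, Camk2a was above Camk2d in every Ctrl heart and below it in every cKO heart. The gene models are 7465 bases long for Camk2a and 22493 for Camk2d. In reads Camk2d was above Camk2a in every heart, at 2209 to 2795 against 1125 to 1270 reads in Ctrl hearts. Camk2b, named after its values were seen, fell as well (log2 fold change -0.95, adjusted p 0.0014). It was low, at 1.93 to 2.26 FPKM in Ctrl hearts, against 0.516 to 0.784 FPKM in cKO hearts. Its cKO mean was 29.1% of Ctrl, against 37.2% for Camk2a, since log2(FPKM + 1) understates changes of low genes. The other lower genes were Pde3a, Akap7 and Atp2a3, at -0.56 to -0.43, and Strit1. With hearts scaled to cardiomyocyte markers Pde3a (-0.12, adjusted p 0.463), Akap7 (-0.03, adjusted p 0.854) and Atp2a3 (-0.07, adjusted p 0.683) lost their calls in limma, while Strit1, Camk2a and Camk2b kept theirs.

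Because calreticulin is also a chaperone, 15 general genes of folding and quality control in the endoplasmic reticulum were read beside it. In cKO hearts 6 were higher and 1 lower, 8 did not pass (46.7% passed, against 33.3% of all genes), and the median log2 fold change was 0.26. Herpud1, a component of the degradation of misfolded reticular proteins, fell from 154, 193 and 234 FPKM to 64.9, 52.8 and 96.9 FPKM (log2 fold change -1.45, SE 0.24, adjusted p 0.0058). Sdf2l1, part of a chaperone complex of the reticulum, rose from 4.59, 5.34 and 6.19 FPKM to 10.2, 9.51 and 8.97 FPKM (log2 fold change 0.74, adjusted p 0.0036). Creld2, which responds to reticular stress, rose from 7.83, 7.71 and 10.4 FPKM to 14.9, 12.5 and 14.3 FPKM (log2 fold change 0.63, adjusted p 0.0106). The groups did not overlap for these 3 genes. Hspa5, the chaperone BiP, was at 94.5 to 134 FPKM in Ctrl hearts, against 98.5 to 117 FPKM in cKO hearts, and did not pass (log2 difference -0.11, 95% interval -0.44 to 0.22, adjusted p 0.584).

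**Figure D4:**
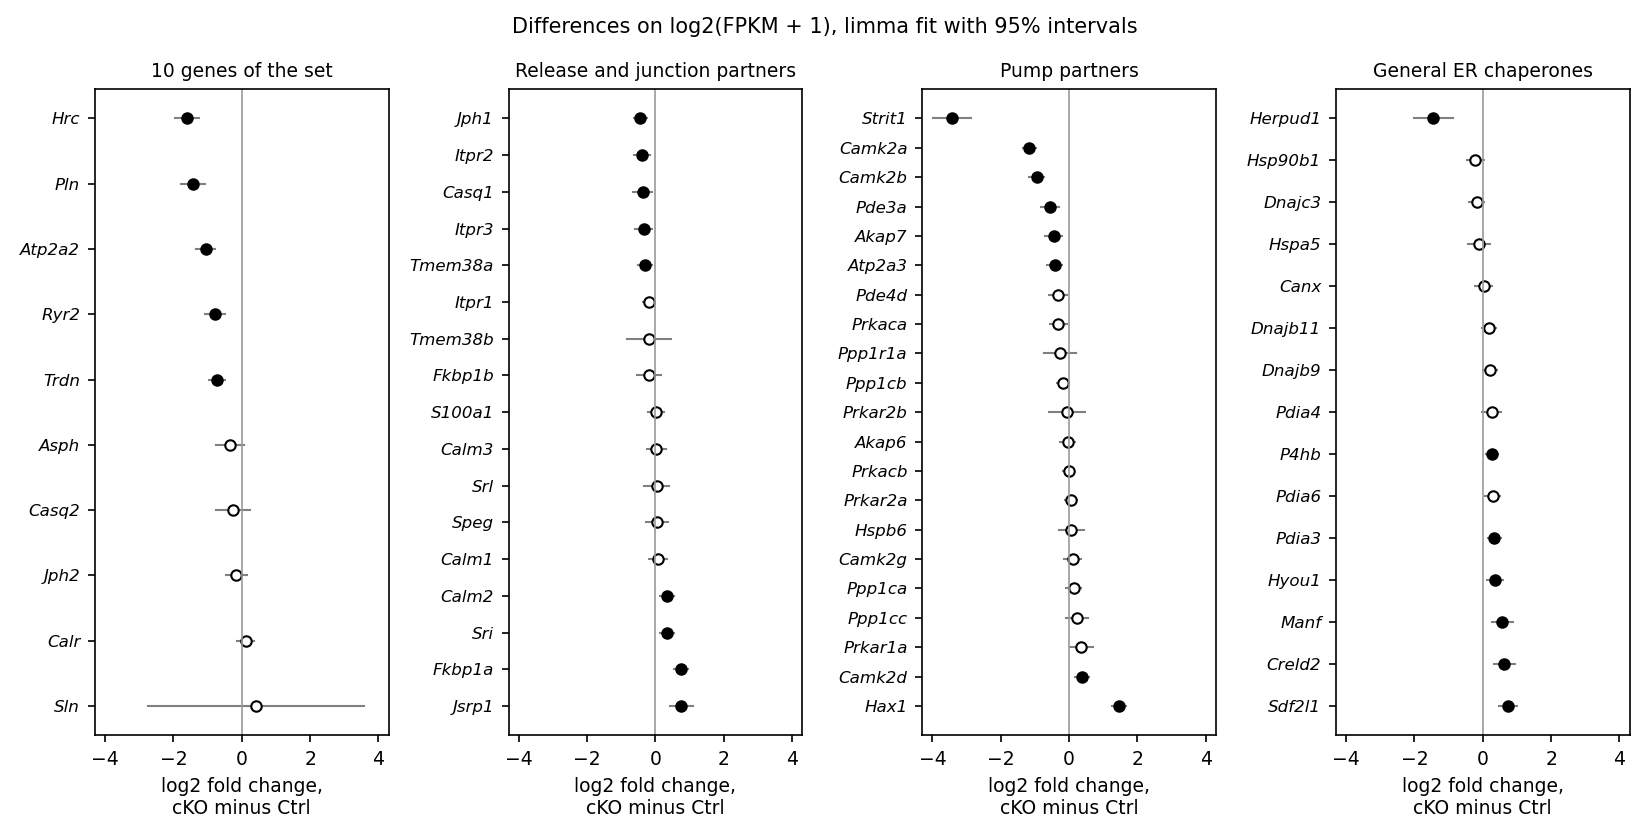
Log2 fold changes of cKO against Ctrl on log2(FPKM + 1) with 95% intervals from limma, for the 10 genes and for the partner lists, with filled points for genes past the threshold. Strit1 at -3.43 lies farthest from 0, and among the 10 genes Hrc, Pln, Atp2a2, Ryr2 and Trdn are filled.

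The genes whose pattern over the 6 hearts was most like that of Hrc were found by the root mean square difference of centred log2(FPKM + 1), over the 3600 genes that averaged 10 FPKM or more. They were Ivd (0.0853), Pln (0.0931) and Ppm1k (0.127). Ivd was at 82.2 FPKM in Ctrl hearts, against 27.6 FPKM in cKO hearts on average (log2 fold change -1.55, adjusted p 0.0011).

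Because Pln was near Hrc in this measure, the 250 bases before their start sites were read beside those of Calr, which did not pass. RefSeq gave promoters for 6 of the 10 genes and for Strit1 (build GRCm38.p6). Matches on either strand to 6 motifs are in capitals. The motifs were TATAAA, a core promoter element, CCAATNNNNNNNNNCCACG, known as the endoplasmic reticulum stress element, CACGTG, known from factors of the basic helix-loop-helix family, GGGCGG, known from Sp1, and by name the MEF2 motif and the CArG box. Pln is at chr10:53337436-53337685 on the plus strand, Hrc at chr7:45335019-45335268 on the plus strand and Calr at chr8:84846932-84847181 on the minus strand.
Pln: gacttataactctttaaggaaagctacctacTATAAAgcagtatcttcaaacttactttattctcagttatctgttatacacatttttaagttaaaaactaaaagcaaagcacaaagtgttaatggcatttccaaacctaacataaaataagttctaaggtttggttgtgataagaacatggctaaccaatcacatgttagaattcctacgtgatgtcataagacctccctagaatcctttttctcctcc
Hrc: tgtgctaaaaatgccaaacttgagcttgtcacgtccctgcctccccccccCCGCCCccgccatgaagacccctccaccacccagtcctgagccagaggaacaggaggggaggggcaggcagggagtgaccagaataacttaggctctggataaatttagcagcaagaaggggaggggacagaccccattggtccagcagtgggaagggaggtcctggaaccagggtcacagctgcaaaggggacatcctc
Calr: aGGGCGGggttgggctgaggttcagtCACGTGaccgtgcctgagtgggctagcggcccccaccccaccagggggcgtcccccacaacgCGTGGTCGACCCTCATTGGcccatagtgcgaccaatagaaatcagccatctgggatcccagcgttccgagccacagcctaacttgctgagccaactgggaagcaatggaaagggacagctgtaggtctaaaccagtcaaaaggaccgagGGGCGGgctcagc
The Pln window holds a TATAAA (in 12.4% of 32851 promoters) from -219 to -214, and the Hrc window a GGGCGG (32.7% of promoters) on the reverse strand from -200 to -195, so these windows share none of the motifs searched. The Calr window holds the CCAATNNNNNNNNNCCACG motif on the reverse strand from -162 to -144, found in 37 promoters (0.113%), along with a CACGTG (6.02%) and 2 copies of GGGCGG, none of them overlapping. Casq2 holds a MEF2 motif (2.92%), Jph2 a GGGCGG, no window holds a CArG box (1.47%), and no match to these letters lies in the windows of Ryr2 and Strit1. The GC content of the windows was 32.8% for Pln, 59.6% for Hrc, 62.0% for Calr and 40.8% for Strit1, against a median of 52.4% over all promoters.

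Other processing was tried for the 10 genes. Hrc, Pln and Atp2a2 passed as lower in all 16 alternatives, with log2 fold changes from -1.77 to -1.09, from -1.58 to -0.93 and from -1.20 to -0.55. The end nearest 0 came each time from scaling to the cardiomyocyte markers, an alternative added after these markers were seen to be lower, which moved the median over all genes from -0.02 to 0.36. Without Ctrl replicate 1 and cKO replicate 3, the hearts richest in Myl7, 5 of the 10 genes passed, and the count of the release partners dropped from 9 to 2, that of the pump's partners from 8 to 4 and that of the reticular folding genes from 7 to 2. Leaving out any heart other than cKO replicate 2 left 4 release partners past the threshold, and leaving out Ctrl replicate 1 or 2 left 3 folding genes. Strit1, Hax1, Camk2a, Fkbp1a, Jsrp1, Herpud1 and Sdf2l1 passed under all 16 alternatives run for them.

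**Figure D5:**
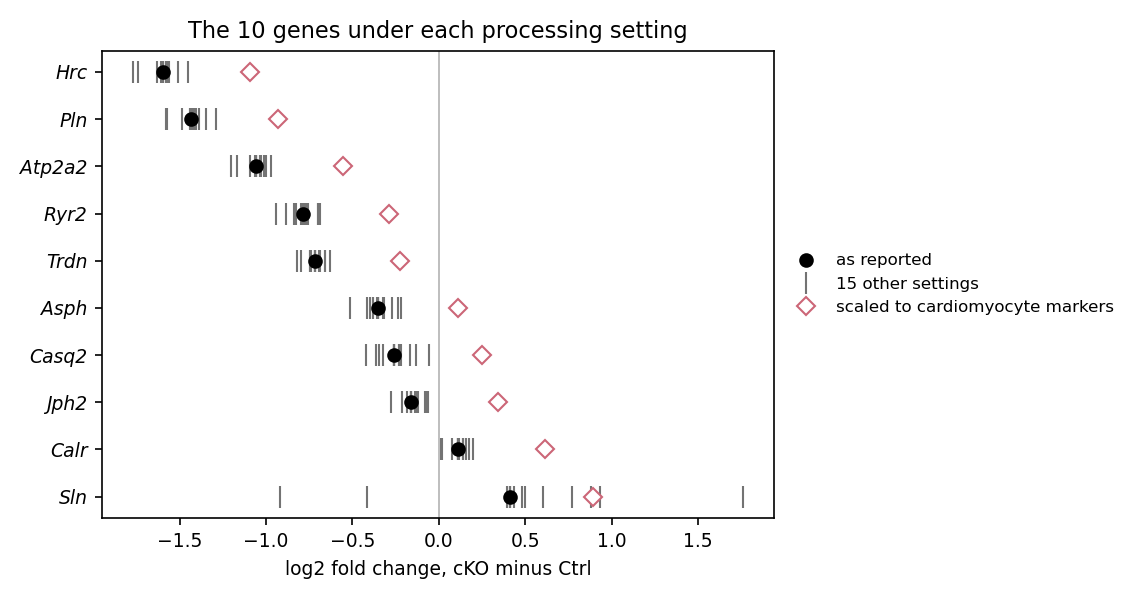
Log2 fold changes of the 10 genes as reported (filled points), under 15 other settings (ticks) and with each heart scaled to its cardiomyocyte markers (open diamonds). Hrc, Pln and Atp2a2 stay below 0 in every setting, the diamonds lie at higher values than the filled points for all 10 genes, and Sln spreads from -0.92 to 1.76.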

How the data were processed

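RNA-seq of 6 hearts (3 Ctrl, 3 cKO, separate mice, grouped by title) was analysed. Per the submitters' processing notes, the authors used HISAT2 2.0.5, featureCounts 1.5.0-p3 and DESeq2 1.16.1, and mm9 is listed as build. The coordinates deposited nevertheless equal GENCODE release 21 (GRCm38): 54409 identifiers were shared, 54409 with the same chromosome and 53499 with the same start and end. The authors deposited FPKM and the gene length, another value that was used as given. Strand and multi-mapping settings are not given in the sources used here. FPKM times length gave whole reads (within 0.01) for 100% of values. No pair of libraries of a group agreed within sampling noise (mean chi-square per gene 14.3 to 47.3).

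Values were tested as log2(FPKM + 1), which understates changes of low genes, with limma 3.58.1 (R 4.3.3, eBayes with trend, two-sided, no covariates) over the 12944 genes averaging 0.5 FPKM or more, Benjamini-Hochberg adjusted, threshold 0.05. Ratios were compared by exact permutation (scipy 1.17.1). Errors are SD unless SE is stated. The fit was tested on 5 simulated tables with 200 changed genes each. On average 67.5% of 2-fold and 91.8% of 4-fold changes were recovered, and 6.01% of the calls were false. The members and lists were chosen with earlier results of these data known. Named were all 10 genes, the 3 largest passing changes of each list, Strit1, Fkbp1b, Srl, Hspa5 and Camk2d whatever they showed, the 3 genes nearest to Hrc, Mrps5, Myl7 and Myl4; other names were chosen after their values were seen. Of the pump's partners, Arln and Erln were not found by symbol or synonym and are not analysed here. Alternatives were another pseudocount, 2 other filters, 3 scalings, eBayes without trend, voom on the recovered reads, leaving out hearts and the replicate block.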

Additional observations from a re-analysis of the deposited data

How the results depend on the processing

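Of the 10 genes, Hrc, Pln and Atp2a2 kept their direction and call under all 16 alternatives. With hearts scaled to their cardiomyocyte markers the log2 differences of Casq2 (0.25), Jph2 (0.34) and Asph (0.11) turned positive without passing, and Ryr2 (-0.29) and Trdn (-0.23) stayed negative but did not pass. Calr passed as higher there (0.62). These markers are themselves genes of cardiomyocytes. That of Sln turned negative without Ctrl replicate 3 (-0.92) and without cKO replicate 3 (-0.42), and over all such fits it lay between -0.92 and 1.76. Leaving out each heart in turn gave 5 or 6 passing genes of the 10, Asph being the sixth without cKO replicate 2 (-0.52).

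Counts of the partner lists moved more. Leaving out each heart in turn, 4 to 7 of the release partners passed against 9 with all hearts, 6 to 10 of the pump's partners against 8 and 3 to 7 of the reticular folding genes against 7, the last count being 3 without Ctrl replicate 1 or Ctrl replicate 2. The first was 4 without each of the hearts other than cKO replicate 2. With no filter on low values 5 release partners passed. With hearts scaled to their cardiomyocyte markers 13 of the pump's partners (10 higher, 3 lower) and 12 of the reticular folding genes (11 higher, 1 lower) passed, and 9 release partners, all as higher. Without both hearts richest in Myl7 2 release partners, 4 of the pump's partners and 2 folding genes passed, in a fit on 4 hearts. The cause of these moves was not tested.

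The labels give both groups replicate numbers. Deviations of same-numbered hearts correlated at -0.06, 0.17 and -0.01, and those of differently numbered hearts at -0.14 to 0.16. Not every heart correlated best with its own number. With so few hearts a group, these correlations cannot decide whether the numbers pair the hearts. With the replicate block 1874 genes were higher and 1982 lower, Asph passed (limma adjusted p 0.0359), and every other gene of the 10 stayed on its side of the threshold. The smallest exact p of a ratio under the block is 0.25. Alternatives were run for 5 of the 12 ratios (Pln to Atp2a2, Sln to Atp2a2, Casq2 to Ryr2, Hrc to Casq2 and Calr to Casq2), which kept their direction, and not for the 7 added later. Depth limits Strit1 in cKO hearts (5 to 20 reads), Jsrp1 (12 to 55 reads) and Fkbp1b (10 to 23 reads), and values per gene do not separate isoforms.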
